A study of Rattus norvegicus with 64 samples.

Results

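The genes described are 9 genes of the myelin sheath that mature oligodendrocytes express: Mbp, Mobp, Mog, Mag, Opalin, Ermn, Fa2h, Ugt8 and Cnp. They were taken by gene name, with earlier results of these data known, and are 9 of the 32551 rat gene identifiers in the count tables. Each of the 9 names matched 1 identifier, and all 9 passed the filter on low counts in every comparison. Raw counts ran from 375 to 854 per library for Fa2h, which had the fewest, and from 46809 to 106378 per library for Mbp, which had the most.

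The values are read counts per gene from 64 RNA sequencing libraries, made from the hippocampus and the cortex of 32 rats. In each region there were 4 groups of 8 rats, 4 females and 4 males each: ApoE4 rats given doxorubicin (DOXO), ApoE4 rats given phosphate-buffered saline (PBS), ApoE3 rats given DOXO and ApoE3 rats given PBS. ApoE3 and ApoE4 name forms of apolipoprotein E, a protein that carries lipids between brain cells, and doxorubicin is a cancer drug of the anthracycline class that poisons topoisomerase II. DOXO rats received 2 mg/kg weekly for 4 weeks beginning at 5 weeks of age, so that dosing began in juvenile animals, and both regions were collected 5 to 6 weeks after the final dose. How the ApoE forms were introduced into the rats, and whether both genotypes share a strain background, is not given in the sources used here.

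The libraries held between 10.8M and 20.4M counts each, the median being 14.45M, which limits the precision of each value together with the 8 rats per group. Prox1, a transcription factor of hippocampal granule neurons, had 67.5 to 114 CPM (counts scaled to a common library total) in hippocampal libraries and 10.3 to 18.9 CPM in cortical libraries, which follows the region labels. The rat Apoe row held 3.11 to 8.75 CPM, and a row named for an ApoE3 donor sequence held 1227 to 2407 CPM in ApoE4 libraries and 1278 to 3137 CPM in ApoE3 libraries, so this row does not separate the genotypes. Rat numbers ran in unbroken runs by genotype, sex and treatment, and a batch that followed these runs cannot be told apart from those factors. The p-values measure the spread between rats for comparisons within a region. In fits across regions, the hippocampal and cortical libraries of a rat entered as independent unless rats were paired.

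Oligodendrocytes wrap axons of the central nervous system in a spiral of membrane that is compacted into myelin, and in rats this wrapping continues well after birth, through the juvenile and young adult period. The cells build the sheath from a small set of very abundant proteins and from lipids rich in galactose, and they make these products in a coordinated programme under the transcription factors Sox10 and Myrf. Mbp encodes myelin basic protein, which holds the cytoplasmic faces of compact myelin together, and Mobp a small basic protein of the same layers. Cnp encodes a phosphodiesterase that keeps cytoplasmic channels open within the sheath. Mag is an adhesion molecule at the axon-facing membrane, Mog lies on the outermost surface of the sheath, and Opalin is a membrane glycoprotein of mature oligodendrocytes. Ermn encodes ermin, a protein of the actin cytoskeleton at the tips of oligodendrocyte processes. Ugt8 makes galactosylceramide, the main glycolipid of myelin, and Fa2h adds the hydroxyl group to the fatty acids that these lipids carry. In bulk tissue, fewer cells of a type and less RNA per cell cannot be told apart.

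Promoter sequences are shown for Opalin and Mobp, because these genes had the largest fitted DOXO differences of the 9 in ApoE3 hippocampus and their windows hold the most matches to motifs of the oligodendrocyte programme. Each sequence is the 250 bases before the transcription start in RefSeq's annotation of the rat genome GRCr8, read 5′ to 3′ on the strand of the gene. For Opalin it is chr1:249858191-249858440 on the minus strand, and for Mobp it is chr8:128746982-128747231 on the plus strand. Capitals mark the matches to 3 motifs that were searched on both strands and do not overlap each other in these windows. The SOX core was searched as ACAAAG, and on the opposite strand it reads CTTTGT. The MYRF motif was searched as CTGGCAC, and on the opposite strand it reads GTGCCAG. The E-box was searched as CAGCTG, which reads alike on both strands.
Opalin: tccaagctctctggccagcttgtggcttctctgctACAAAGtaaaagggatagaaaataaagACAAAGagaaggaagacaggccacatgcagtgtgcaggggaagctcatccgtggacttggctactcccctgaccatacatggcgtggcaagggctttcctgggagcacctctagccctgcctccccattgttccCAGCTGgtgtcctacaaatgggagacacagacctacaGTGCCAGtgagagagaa
Mobp: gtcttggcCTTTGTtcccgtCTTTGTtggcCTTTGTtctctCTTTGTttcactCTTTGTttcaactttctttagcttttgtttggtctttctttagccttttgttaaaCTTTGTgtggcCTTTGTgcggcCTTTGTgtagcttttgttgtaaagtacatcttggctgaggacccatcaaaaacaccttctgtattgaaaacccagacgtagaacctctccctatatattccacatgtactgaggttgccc
The Opalin window holds ACAAAG beginning at positions -215 and -188, CAGCTG at -54 and GTGCCAG at -17, counted back from the start. The Mobp window holds 8 matches to CTTTGT in 2 clusters, between positions -242 and -197 and between -142 and -120. RefSeq promoter windows were found for 7 of the 9 members, 8 windows in all with 2 starts of Mbp; Ermn and Mog were not matched. The SOX core was found in 5 of the 8 windows, against 16.3% of all 33469 rat promoter windows of this length. The MYRF motif was found in 3 of 8 windows, against 3.78% of all windows, and the E-box in 3 of 8, against 12.0%. A match is a run of letters and not a measured binding site.

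The 9 genes shared the groups at both ends of their order of levels. In every one of the 9, the highest group mean was that of PBS-treated ApoE4 cortex and the lowest was that of PBS-treated ApoE3 hippocampus. DOXO-treated ApoE4 cortex stood second in 7 of the 9 and DOXO-treated ApoE3 cortex seventh in 6 of the 9, counted from the highest. Of the 63 steps between neighbours in these orders of 8 groups, 6 were wider than the larger SD of the neighbouring groups, and the rest were within it. The 6 steps were the second in Ermn and the last in Mobp, Mag, Opalin, Ermn and Cnp, the last being the step down to PBS-treated ApoE3 hippocampus. The share of counts on mitochondrially encoded genes was also the highest of the 8 groups in PBS-treated ApoE4 cortex, at 8.96 ± 0.989%, against 6.86 ± 0.377% in PBS-treated ApoE3 hippocampus and 7.81 ± 0.713% in PBS-treated ApoE4 hippocampus (SD, n = 8 each). It was 6.56 ± 0.358% in DOXO-treated ApoE3 hippocampus (SD, n = 8), the lowest of the 8. Its part in the levels of the 9 genes was not tested.

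**Figure D1:**
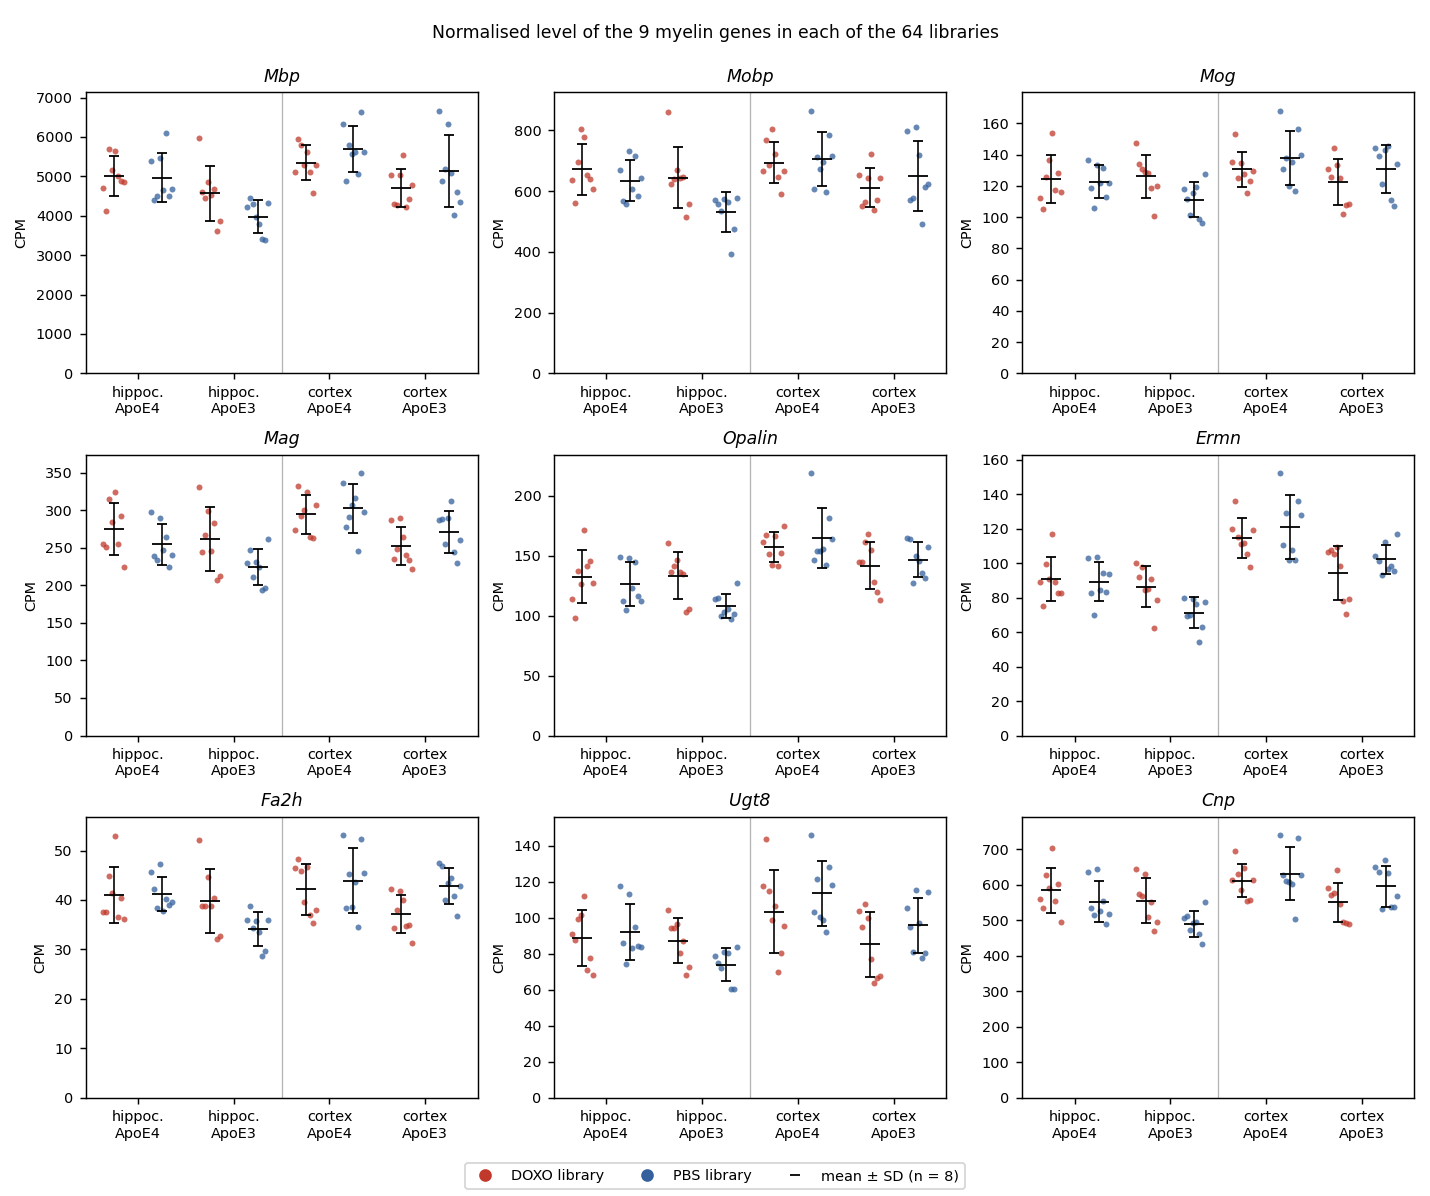
Level of each of the 9 genes in every library, in CPM on a linear axis, by region, genotype and treatment, with 8 rats per group and the mean and SD of each group drawn. PBS-treated ApoE3 hippocampus has the lowest mean in all 9 panels and PBS-treated ApoE4 cortex the highest.

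Opalin and Mbp are given here in all 8 groups. In hippocampus Opalin averaged 133 ± 21.9 CPM in ApoE4 DOXO rats, 126 ± 18.2 CPM in ApoE4 PBS rats, 133 ± 19.6 CPM in ApoE3 DOXO rats and 108 ± 10.1 CPM in ApoE3 PBS rats (SD, n = 8 each). In cortex it averaged 157 ± 12.2 CPM in ApoE4 DOXO rats, 165 ± 25.1 CPM in ApoE4 PBS rats, 142 ± 19.9 CPM in ApoE3 DOXO rats and 147 ± 14.7 CPM in ApoE3 PBS rats (SD, n = 8 each). All 4 cortical means were thus above all 4 hippocampal ones. For Mbp the hippocampal means were 5007 ± 511 CPM in ApoE4 DOXO rats, 4965 ± 619 CPM in ApoE4 PBS rats, 4570 ± 704 CPM in ApoE3 DOXO rats and 3976 ± 417 CPM in ApoE3 PBS rats (SD, n = 8 each). In cortex Mbp averaged 5342 ± 443 CPM in ApoE4 DOXO rats, 5692 ± 584 CPM in ApoE4 PBS rats, 4701 ± 481 CPM in ApoE3 DOXO rats and 5138 ± 924 CPM in ApoE3 PBS rats (SD, n = 8 each). The regions interleave for Mbp: the ApoE4 hippocampal means lie above the ApoE3 DOXO cortical mean.

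The first question of the design is whether DOXO altered expression in each region and genotype. In ApoE3 hippocampus all 9 genes had higher fitted levels after DOXO, by log2 0.17 for Cnp to 0.29 for Opalin, but none passed the test. The median over the 9 was a log2 change of 0.22, against 0.00146 over all 14899 genes tested. By edgeR's quasi-likelihood test with Benjamini-Hochberg adjustment over all genes, 0 of the 9 had an adjusted p under 0.05, with a share of 0% of all genes called, and the adjusted p of the 9 ran from 0.183 to 0.349. All 9 had an unadjusted p under 0.05, against 10.3% of all genes, with 4.38% of all genes passing it and higher after DOXO.

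The structural proteins of the sheath showed the size of these differences against the spread. Mbp had 3605, 4567 and 5965 CPM as the lowest, median and highest of the ApoE3 hippocampal DOXO libraries, against 3380, 4089 and 4444 CPM in the PBS libraries. Mobp had 513, 642 and 860 CPM in DOXO libraries, against 391, 560 and 578 CPM in PBS libraries. The ranges overlapped for both, with 6 of 8 DOXO libraries above the PBS median. Their log2 changes were 0.20 for Mbp (SE 0.07, adjusted p = 0.324) and 0.28 for Mobp (SE 0.08, adjusted p = 0.214). Cnp, the phosphodiesterase of the cytoplasmic channels, had 470, 559 and 646 CPM in DOXO libraries, against 432, 494 and 552 CPM in PBS libraries.

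Among the membrane and adhesion proteins, Opalin had 103, 137 and 161 CPM as the lowest, median and highest of the DOXO libraries, against 97.6, 105 and 127 CPM in the PBS libraries. In 7 of 8 DOXO libraries it was above the PBS median, which at least 7 libraries reached for 11.4% of all genes, and the 2 groups overlapped. Its log2 change was 0.29 (SE 0.08, adjusted p = 0.183 by edgeR). DESeq2 on the same counts gave Opalin a log2 change of 0.30 (SE 0.08) and an adjusted p of 0.0304, and called 0.638% of 23969 genes. In the authors' deposited table Opalin had a log2 fold change of 0.303 and an adjusted p of 0.0366, with 0.991% of its 15035 genes under 0.05. The call of Opalin thus depends on the tool, and it was the 1 member of 9 that either of those tables called. Mag had 207, 256 and 331 CPM in DOXO libraries, against 193, 227 and 262 CPM in PBS libraries, and Mog 100, 128 and 148 CPM in DOXO libraries, against 96.0, 114 and 128 CPM in PBS libraries. The groups overlapped for both.

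Ermn, the cytoskeletal protein, had 62.6, 87.8 and 99.8 CPM in DOXO libraries, against 54.4, 73.1 and 79.8 CPM in PBS libraries, a log2 change of 0.27 (SE 0.08, adjusted p = 0.213). Of the lipid enzymes, Ugt8 had 68.1, 90.7 and 104 CPM in DOXO libraries, against 60.4, 76.6 and 83.6 CPM in PBS libraries. Fa2h had 32.2, 38.8 and 52.2 CPM in DOXO libraries, against 28.7, 35.1 and 38.8 CPM in PBS libraries. The groups overlapped for all 9 genes, and 0.0268% of all genes did not overlap. The same rats set the extremes: rat 47 was the highest of the DOXO libraries and rat 68 the lowest in all 9, so the 9 genes are not 9 independent measurements. Without rat 47 the median log2 change was 0.17, and without PBS rat 61 it was 0.27.

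**Figure D2:**
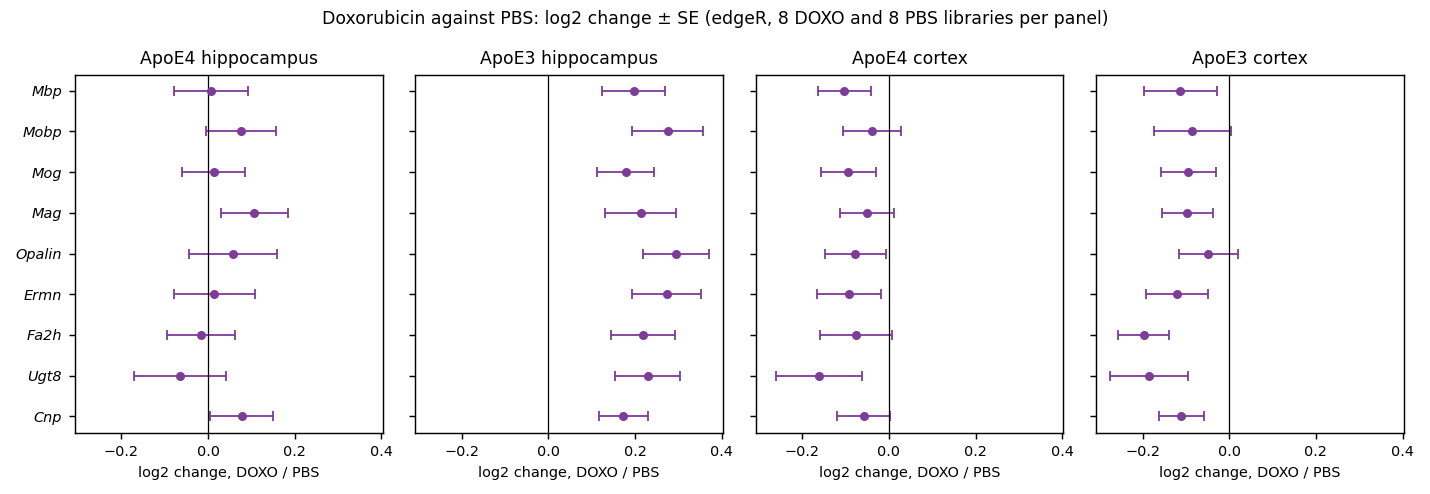
Fitted log2 change, DOXO over PBS, of each of the 9 genes in the 4 combinations of region and genotype, with bars of 1 SE (edgeR, 16 libraries per fit). The values lie from 0.17 to 0.29 in ApoE3 hippocampus, around 0 in ApoE4 hippocampus and below 0 in both genotypes in cortex.

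In ApoE4 hippocampus the 9 genes lay near 0. Log2 changes ran from -0.06 for Ugt8 to 0.11 for Mag with a median of 0.01, 7 above 0 and 2 below. None passed, with 0% of 14873 genes called, and the adjusted p of the 9 ran from 0.745 to 0.99. None of the 9 had an unadjusted p under 0.05, against 7.38% of all genes. For Mbp, Mag and Cnp 7 of 8 DOXO libraries were above the PBS median, which at least 7 libraries reached for 11.3% of all genes. The count was 6 for Mobp and Opalin, 5 for Ermn and Ugt8 and 4 for Mog and Fa2h. Opalin had 97.9, 132 and 171 CPM in DOXO libraries, against 105, 120 and 149 CPM in PBS libraries, so that the PBS libraries fell within the DOXO range. Rat 29 was the highest DOXO library in 7 of the 9 genes.

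Whether the 2 genotypes differed in this response was tested directly as the ApoE4 effect minus the ApoE3 effect. In hippocampus the difference was negative for all 9 genes, from log2 -0.09 for Cnp to -0.29 for Ugt8, and none passed, with 0% of 15416 genes called. Ugt8 (SE 0.13, adjusted p = 0.589) and Fa2h (-0.23, SE 0.11, adjusted p = 0.608) had an unadjusted p under 0.05, 2 of 9 against 8.18% of all genes. In cortex the difference ran from log2 -0.03 to 0.12 and none passed, with 0% of 15315 genes called. The 2 genotypes' responses were therefore not shown to differ.

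In cortex the fitted changes after DOXO were negative for all 9 genes in both genotypes, and none passed. In ApoE3 cortex they ran from log2 -0.05 for Opalin to -0.20 for Fa2h with a median of -0.11, and 0% of 14775 genes were called. Fa2h had 31.3, 36.5 and 42.2 CPM as the lowest, median and highest of the DOXO libraries, against 36.7, 43.2 and 47.5 CPM in the PBS libraries. No DOXO library was above the PBS median for Fa2h, although the ranges overlapped. At most 1 of 8 was above it for 11.2% of all genes, a looser count than the 0 of 8 of Fa2h. Its log2 change was -0.20 (SE 0.06, adjusted p = 0.284). Ugt8, the other lipid enzyme, had 63.5, 85.8 and 108 CPM in DOXO libraries, against 77.5, 96.0 and 115 CPM in PBS libraries (log2 change -0.19, adjusted p = 0.541). Fa2h and Cnp had an unadjusted p under 0.05, 2 of 9 against 9.25% of all genes, with 3.81% of all genes passing it and lower.

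In ApoE4 cortex the changes ran from log2 -0.04 for Mobp to -0.16 for Ugt8 with a median of -0.08, and 0% of 14838 genes were called. Ugt8 had 69.6, 103 and 144 CPM in DOXO libraries, against 91.9, 111 and 146 CPM in PBS libraries, with wide overlap. None of the 9 had an unadjusted p under 0.05, against 8.82% of all genes. DESeq2 also called none of the 9 in either cortical comparison, with 0.334% of 24216 genes called in ApoE3 and 0.136% of 24292 in ApoE4, and none in ApoE4 hippocampus, with 0% of 23871.

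Because each rat gave both regions, the 2 regions can also be compared within an animal, where differences between rats that touch both regions cancel. In ApoE3 rats the hippocampus minus cortex difference in log2 CPM was higher after DOXO for all 9 genes. Fa2h was 0.09 ± 0.14 in DOXO rats and -0.33 ± 0.10 in PBS rats (SD, n = 8 each), with ranges of -0.12 to 0.31 in DOXO rats and -0.51 to -0.22 in PBS rats. Opalin was -0.09 ± 0.14 in DOXO rats and -0.44 ± 0.09 in PBS rats (SD, n = 8 each), with ranges of -0.22 to 0.15 in DOXO rats and -0.54 to -0.31 in PBS rats. For these 2 genes no DOXO rat overlapped any PBS rat, which was so for 0.0483% of the 14500 genes tested in both regions. The other 7 overlapped, with 7 of 8 DOXO rats above every PBS rat for Ermn and Ugt8, 6 for Mog and Cnp, 5 for Mobp and Mag and 4 for Mbp. In all 9 genes all 8 DOXO rats were above the PBS median, against 3.13% of genes. The mean over the 9 genes was 0.00 ± 0.13 in DOXO rats and -0.34 ± 0.09 in PBS rats (SD, n = 8 each), from -0.14 to 0.22 in DOXO rats and from -0.45 to -0.20 in PBS rats.

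**Figure D3:**
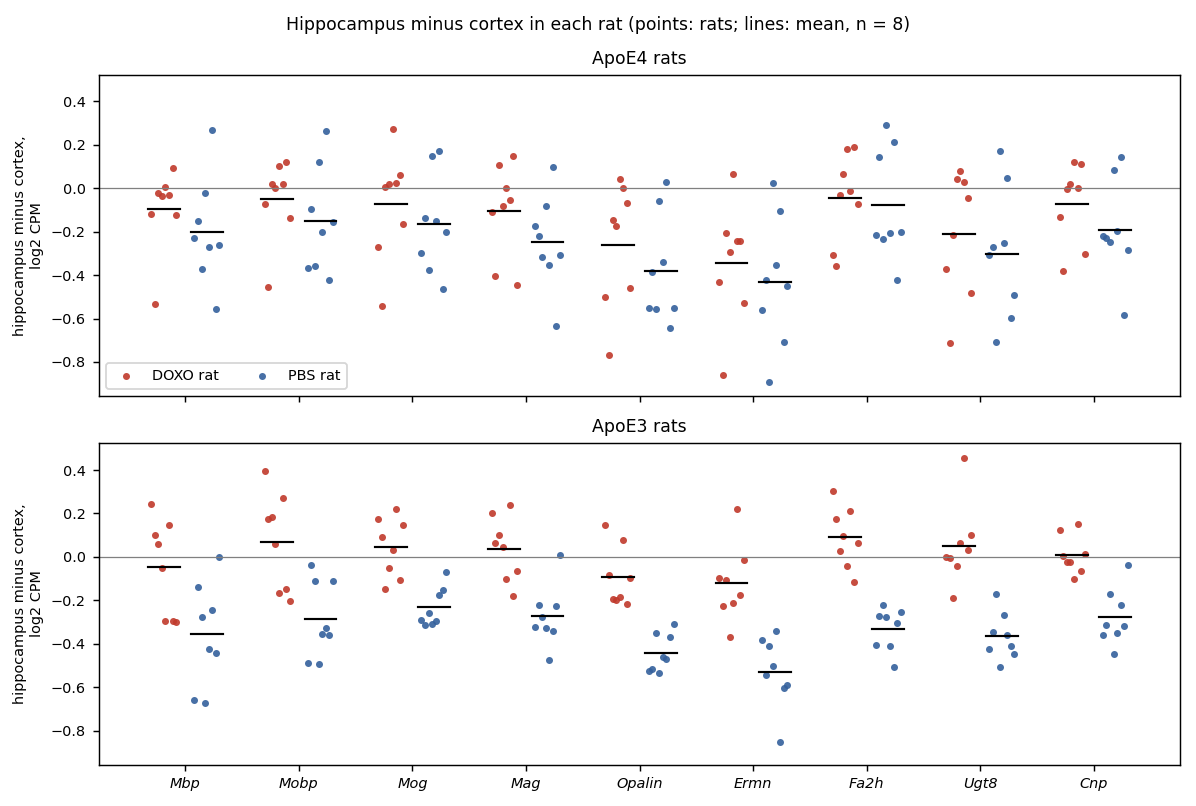
Hippocampus minus cortex difference in log2 CPM of each gene in each rat, with ApoE4 rats above and ApoE3 rats below (points are rats, lines are means, n = 8). In ApoE3 rats the DOXO and PBS points do not overlap for Opalin and Fa2h, and in ApoE4 rats they overlap for all 9 genes.

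The same difference was tested within each genotype, over its 32 libraries, as the hippocampal DOXO effect minus the cortical one (the region by treatment term). In ApoE3 rats it was positive for all 9 genes, from log2 0.27 for Mog to 0.41 for Fa2h, with a median of 0.34. With sex as covariate and rats not paired, none passed and 0% of 15428 genes were called. The smallest adjusted p was that of Fa2h (log2 0.41, SE 0.10, adjusted p = 0.0672), and all 9 had an unadjusted p under 0.05, against 8% of all genes, with 2.16% of all genes passing it and positive. With the rat as a block, which uses the pairing of the regions, 3 of the 9 passed, against 0.0583% of all genes: Fa2h (log2 0.41, SE 0.07, adjusted p = 0.0180), Opalin (0.34, SE 0.06, adjusted p = 0.0356) and Ugt8 (0.41, SE 0.07, adjusted p = 0.0411). The other 6 had adjusted p values from 0.0666 for Ermn to 0.332 for Mbp with the block. Leaving out 1 rat at a time, 0 to 4 members passed with the block: 0 without PBS rat 45 or DOXO rat 72, and 4 without PBS rat 56 or 61. Over all genes, 0 of 15541 were called without rat 45 and 0 of 15477 without rat 72. Without rat 56, 63 of 15434 were called, and without rat 61, 7 of 15541. DESeq2 called 2 of the 9, Fa2h and Cnp, with 0.51% of all genes called, and edgeR with no filter on low counts called 1, Fa2h, with 0.158% called. The term is made of the hippocampal and cortical DOXO comparisons given above, on the same libraries, and is not a further set of data.

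In ApoE4 rats the region by treatment term was positive for all 9, from log2 0.07 to 0.16 with a median of 0.12. None passed with or without the block, 0% of 15432 genes were called, and none of the 9 had an unadjusted p under 0.05, against 3.59% of all genes. The within-rat mean over the 9 genes was -0.14 ± 0.22 in DOXO rats and -0.24 ± 0.24 in PBS rats (SD, n = 8 each). The groups overlapped for each of the 9 genes, with 0.00688% of genes not overlapping, and 5 to 7 of 8 DOXO rats were above the PBS median. The difference between ApoE4 and ApoE3 rats in this term was not tested.

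Genotype alone was compared in the PBS rats. In hippocampus all 9 genes had higher fitted levels in ApoE4 than in ApoE3 rats, by log2 0.14 for Mog to 0.33 for Ermn with a median of 0.26, and 3 passed, against 3.81% of the 15416 genes tested, with 1.93% of all genes passing it and higher. Mbp had 4401, 4664 and 6105 CPM as the lowest, median and highest of the ApoE4 libraries, against 3380, 4089 and 4444 CPM in the ApoE3 libraries. It rose by log2 0.32 (SE 0.08, adjusted p = 0.0238), with a narrow overlap between the top of the ApoE3 range and the bottom of the ApoE4 one. Ermn had 69.7, 88.9 and 104 CPM in ApoE4 libraries, against 54.4, 73.1 and 79.8 CPM in ApoE3 libraries, a log2 change of 0.33 (SE 0.09, adjusted p = 0.0414), and the ranges overlapped. Fa2h had 37.9, 39.9 and 47.2 CPM in ApoE4 libraries, against 28.7, 35.1 and 38.8 CPM in ApoE3 libraries, a log2 change of 0.28 (SE 0.08, adjusted p = 0.0426), again with a narrow overlap. Ugt8 had 74.4, 85.0 and 118 CPM in ApoE4 libraries, against 60.4, 76.6 and 83.6 CPM in ApoE3 libraries, and missed the threshold (log2 0.31, SE 0.09, adjusted p = 0.0564). These calls lie close to the threshold: 0 to 4 members passed when 1 rat was left out, 0 without ApoE3 rat 58, ApoE3 rat 59 or ApoE4 rat 22. Over all genes, those fits called from 441 of 15472 without ApoE3 rat 41 to 563 of 15478 without ApoE3 rat 56. Scaled by library totals without TMM, Mbp alone of the 9 passed, against 4.5% of all genes. By rat, 1 member passed without ApoE3 rat 43 or ApoE4 rat 1, 7, 19, 24 or 26, and 4 passed without ApoE3 rat 61 or ApoE4 rat 4.

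In cortex the ApoE4 against ApoE3 difference in PBS rats was positive for all 9, from log2 0.04 for Fa2h to 0.25 for Ugt8 with a median of 0.15. Only Ermn passed of the 9, while 18.2% of the 15315 genes tested passed and 9.63% passed as higher, so 1 of 9 is near the background. Ermn had 102, 119 and 152 CPM in ApoE4 libraries, against 93.0, 99.9 and 117 CPM in ApoE3 libraries (log2 0.24, SE 0.08, adjusted p = 0.0291), and the groups overlapped. Leaving out 1 rat gave 0 to 2 calls, 0 without ApoE3 rat 41 or 43 or ApoE4 rat 1, 24 or 26. Over all genes, those fits called from 2318 of 15395 without ApoE4 rat 4 to 2843 of 15387 without ApoE3 rat 56. These PBS groups are also the ones against which DOXO was compared above, so a low ApoE3 PBS level enters both comparisons in hippocampus.

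**Figure D4:**
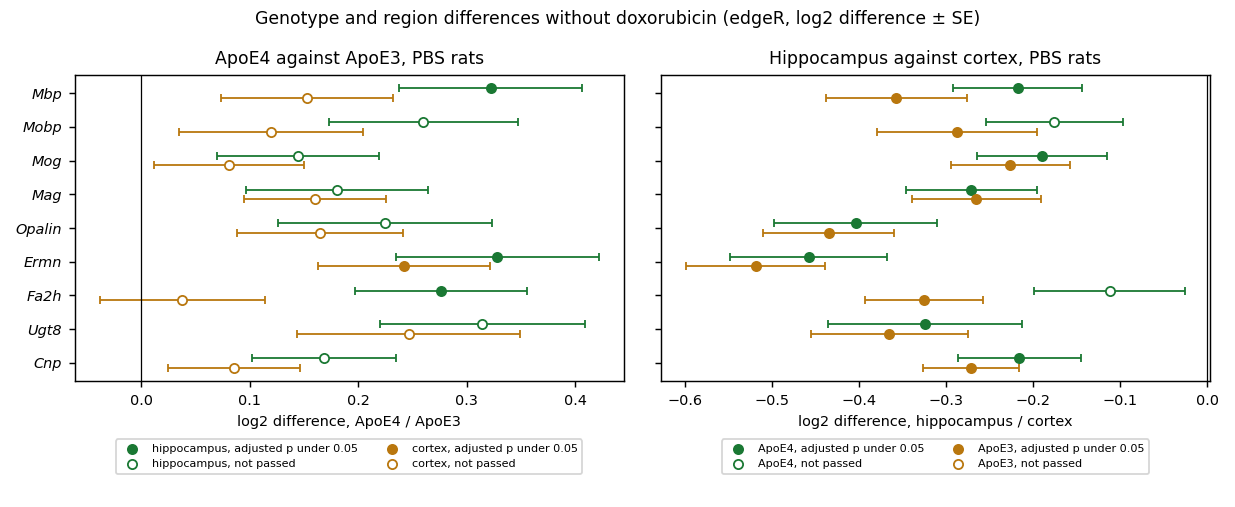
Fitted log2 differences in PBS rats for the 9 genes, ApoE4 over ApoE3 in each region and hippocampus over cortex in each genotype, with bars of 1 SE (edgeR, 32 libraries per fit) and filled points where the adjusted p was under 0.05. The genotype differences are above 0 and the region differences below 0 for all 9 genes.

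Region was compared in the PBS rats of each genotype, with sex as covariate and rats not paired in the main fit. In ApoE4 rats all 9 genes were lower in hippocampus by the fit and 7 passed, against 50.4% of the 15432 genes tested, with 25.7% of all genes passing it and lower. Ermn fell by 0.46 on the log2 scale in hippocampus (adjusted p = 7.26e-05) and Opalin fell by 0.40 (adjusted p = 0.000526). Mobp (-0.18, adjusted p = 0.062) and Fa2h (-0.11, adjusted p = 0.294) did not pass, and Mobp passed with the rat as a block (-0.17, adjusted p = 0.0415). In ApoE3 rats all 9 fell in hippocampus, against 51% of 15428 genes called and 23.6% called lower. The changes ran from log2 -0.23 for Mog (adjusted p = 0.00615) to -0.52 for Ermn (adjusted p = 1.55e-06), and the median of the 9 was -0.22 in ApoE4 rats and -0.33 in ApoE3 rats.

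The difference of the DOXO effect between sexes was tested in each region and genotype as the female effect minus the male effect. None of the 9 genes passed in any of the 4 comparisons. In ApoE3 cortex, where 2.57% of 14775 genes passed, 3 of the 9 had an unadjusted p under 0.05, against 19.5% of all genes, and they did not share a sign. Mbp averaged 4743 ± 585 CPM in DOXO females and 4510 ± 445 CPM in PBS females, but 4659 ± 440 CPM in DOXO males and 5766 ± 863 CPM in PBS males (SD, n = 4 each), a difference of log2 0.39 (SE 0.15, adjusted p = 0.141). Ugt8 averaged 68.7 ± 5.76 CPM in DOXO females and 92.3 ± 16.9 CPM in PBS females, but 101 ± 5.55 CPM in DOXO males and 99.0 ± 14.7 CPM in PBS males (SD, n = 4 each), a difference of log2 -0.45 (SE 0.15, adjusted p = 0.0987). For Ugt8 the DOXO females, at 63.5 to 76.9 CPM, stayed narrowly below the PBS females, at 77.5 to 114 CPM, while DOXO and PBS females did not overlap for 9.14% of all genes. Ermn averaged 81.5 ± 11.8 CPM in DOXO females and 102 ± 10.2 CPM in PBS females, but 107 ± 1.64 CPM in DOXO males and 103 ± 7.96 CPM in PBS males (SD, n = 4 each), a difference of log2 -0.38 (SE 0.12, adjusted p = 0.0835). The fitted female minus male difference was thus positive for Mbp and negative for Ugt8 and Ermn.

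**Figure D5:**
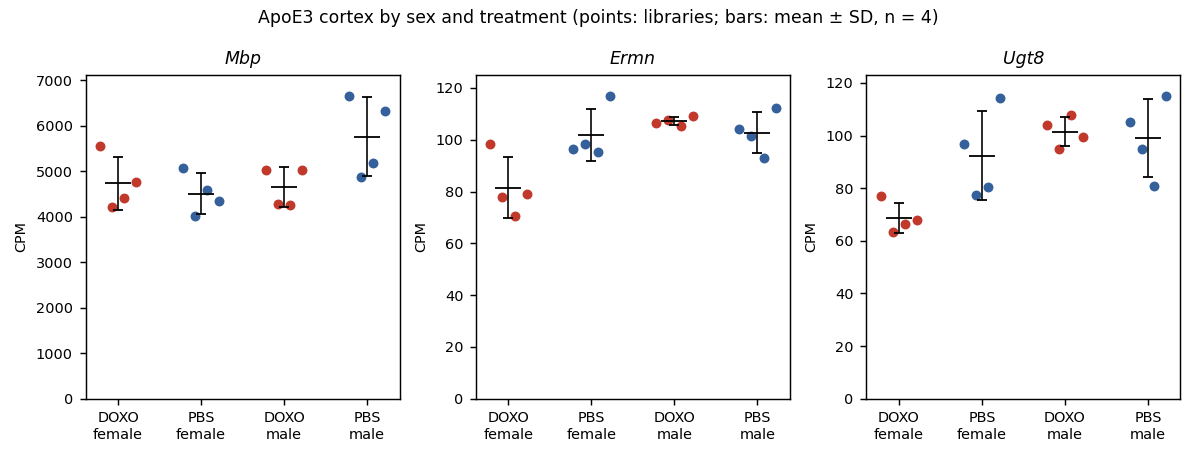
Levels of Mbp, Ermn and Ugt8 in ApoE3 cortex by sex and treatment, in CPM (points are libraries, bars are mean and SD, n = 4). DOXO females lie below PBS females for Ugt8, the highest DOXO female at 76.9 CPM and the lowest PBS female at 77.5 CPM, and the DOXO male mean lies below the PBS male mean for Mbp with overlapping points.

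With no filter on low counts all 3 of these genes passed (Mbp 0.39, adjusted p = 0.0339; Ermn -0.37, adjusted p = 0.0386; Ugt8 -0.45, adjusted p = 0.0246), with 2.6% of 24248 genes called, and DESeq2 called Ermn alone (-0.37, adjusted p = 0.0486), with 3.15% of 24222 called. In the same ApoE3 cortical comparison, marker genes of striatum, a region beneath the cortex, had negative female minus male differences for 8 of 8, with 7 passed and a median of log2 -1.08. The main fit called 2.57% of all genes there. Neuronal markers were negative for 11 of 12, with 5 passed. Pericyte and smooth muscle markers were positive for 7 of 8 (median 0.53), with 2 passed, and microglial markers for 10 of 10 (0.31), endothelial markers for 7 of 7 (0.35) and meningeal markers for 8 of 10 (0.46), with none passed. Their part in the values of the 9 genes was not tested. In the other 3 region and genotype pairs the differences ran from -0.28 to -0.07 in ApoE3 hippocampus, from -0.03 to 0.35 in ApoE4 hippocampus and from -0.32 to 0.09 in ApoE4 cortex. The share of genes called was 0% in both hippocampal comparisons and 0.00674% in ApoE4 cortex.

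Other genes of the lineage were read from lists by role. A list of 28 further genes of mature oligodendrocytes was positive for 27 of 28 after DOXO in ApoE3 hippocampus, against 50.7% of all genes. The median log2 change of the list was 0.15. In it 0 passed, with 0% of all genes called, and 14 had an unadjusted p under 0.05, against 10.3% of all genes. Among the 3 with the smallest p were Tppp (0.21), a tubulin-binding protein, and Qdpr (0.14), a pteridine reductase. The same list had medians of 0.03 in ApoE4 hippocampus, -0.07 in ApoE3 cortex and -0.06 in ApoE4 cortex. Again 0 passed, with 0% of all genes called in each of these comparisons. For the ApoE3 region by treatment term 27 of 28 were positive with a median of 0.22 and 0 passed, with 0% of all genes called. For genotype in PBS rats 7 of 28 passed as higher in hippocampus, against 1.93% of all genes, with a median of 0.19. In cortex 7 of 28 passed as higher, against 9.63% of all genes, with a median of 0.14.

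Transcription factors of the lineage, 9 genes, had a median log2 change of 0.11 after DOXO in ApoE3 hippocampus with 7 positive, of 0.07 in ApoE4 hippocampus with 6 positive, and of -0.08 in ApoE3 cortex with 7 negative. In ApoE4 cortex all 9 were negative with a median of -0.10. None of them, among them Myrf (0.25) and Nkx2-2 (0.25) in ApoE3 hippocampus, passed in these comparisons, where 0% of all genes were called. Genes of sphingolipid and sulfatide synthesis, 9 genes of the pathway of Ugt8 and Fa2h, had medians of 0.00 in ApoE3 hippocampus, -0.05 in ApoE4 hippocampus, -0.03 in ApoE3 cortex and -0.02 in ApoE4 cortex. Of 13 markers of oligodendrocyte precursors 12 were tested, with medians of 0.09 in ApoE3 hippocampus, 0.00 in ApoE4 hippocampus, -0.01 in ApoE3 cortex and -0.06 in ApoE4 cortex. None of either list passed, with 0% of all genes called in each comparison. The value furthest from 0 among the named precursor genes was that of Enpp6 in ApoE3 hippocampus (0.41), a marker of newly forming oligodendrocytes.

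Markers of other cell types were read beside the 9 genes. None of the following passed in the DOXO comparison of ApoE3 hippocampus, where 0% of all genes were called. The summed level of astrocyte markers ran from 5581 to 6258 CPM with a median of 6169 CPM in DOXO libraries. In PBS libraries that of astrocytes ran from 5376 to 6455 CPM with a median of 5912 CPM. Meningeal markers were negative for 10 of 10 with a median log2 change of -1.17, and their summed level ran from 111 to 592 CPM with a median of 128 CPM in DOXO libraries and from 141 to 1051 CPM with a median of 469 CPM in PBS libraries. Endothelial markers were negative for 7 of 7 (median -0.36), microglial markers negative for 10 of 10 (median -0.09), ependymal markers positive for 8 of 8 (median 0.46) and neuronal markers positive for 11 of 12 (median 0.05). The summed level of pericyte and smooth muscle markers ran from 189 to 277 CPM with a median of 204 CPM in DOXO libraries. In PBS libraries it ran from 175 to 499 CPM with a median of 323 CPM. Choroid plexus markers had positive fitted changes for 7 of 7 (median 1.86), although the median library had a lower summed level, with 5.94 to 6558 CPM and a median of 15.1 CPM in DOXO libraries and 11.4 to 3446 CPM and a median of 97.5 CPM in PBS libraries. With a meningeal score as covariate, a setting chosen after seeing the data, the median of the 9 was log2 0.31, against 0.22 without it, and Opalin was 0.42 (SE 0.09, adjusted p = 0.181). None of the 9 passed in that fit, with 0% of 14899 genes called. The score itself was 3.81 ± 0.615 in DOXO libraries and 5.08 ± 1.04 in PBS libraries (mean log2 CPM, SD, n = 8 each). The fit therefore cannot fully tell the score apart from treatment. Beyond that fit, the part of these cell types in the values of the 9 genes was not tested. In the ApoE3 region by treatment term meningeal markers were negative for 10 of 10 (median -1.34), endothelial for 7 of 7 (median -0.56) and pericyte and smooth muscle for 9 of 9 (median -0.53). Choroid plexus markers were positive there for 9 of 9 (median 1.41). None of these passed, with 0% of all genes called. For genotype in PBS rats, hippocampal meningeal markers were negative for 8 of 10 (median -0.36), choroid plexus markers positive for 9 of 9 (median 2.68) and ependymal markers positive for 8 of 8 (median 0.53), with none passed. Microglial markers were lower in ApoE4 hippocampus for 8 of 10 (median -0.21), and 3 passed, against 3.81% of all genes. In cortex meningeal markers were positive for 10 of 10 (median 0.86), with 8 passed, endothelial markers positive for 7 of 7 (median 0.28), with 5 passed, and microglial markers negative for 8 of 10 (median -0.26), with 5 passed as lower and 2 as higher. Of all genes in this cortical comparison 18.2% passed, with 9.63% as higher and 8.57% as lower.

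The 9 genes varied together between rats of the same group. After the group means were taken out, each gene's Pearson correlation with the mean of the other 8 ran from 0.84 for Opalin to 0.92 for Mag over the 32 hippocampal libraries, and from 0.66 for Mbp to 0.92 for Cnp over the 32 cortical ones, where Mobp had 0.70. The libraries share their scaling, and these values describe likeness only. Of the 14729 other genes ranked in hippocampus, the 8 most like the mean of the 9 included Tmem88b (0.95), Tspan2 (0.89) and Gpr37 (0.88). In cortex they included Tspan2 (0.89), Car2 (0.89) and Cldn11 (0.87). Tspan2 and Mal (0.87 in hippocampus and 0.86 in cortex) stood among the 8 most alike in both regions.

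Whether a rat that was high in hippocampus was also high in cortex was read over the 32 rats with group means taken out, as 9 relations. Ugt8 had a Pearson r of 0.58 (permutation p = 0.00052, adjusted p = 0.00468) and a Spearman rho of 0.59 (permutation p = 0.00044, adjusted p = 0.00396), and r was 0.56 without the 2 rats farthest from the median. The other 8 genes had r from 0.18 for Mbp to 0.43 for Fa2h, and none passed after adjustment (permutation tests, adjusted p from 0.0614 to 0.331). Rats with more Ugt8 in hippocampus than their group mean thus tended to have more in cortex also. Sex was not taken out, and the female mean of Ugt8 was below the male mean in every group. In ApoE3 DOXO rats it was 77.1 CPM in females against 97.4 CPM in males in hippocampus. In cortex of these rats it was 68.7 CPM in females against 101 CPM in males. The part of sex in this relation was not tested.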

How the data were processed

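The deposited count tables come as 1 table for each region and genotype and give, as the authors made them, raw whole-number counts by Ensembl identifier. Alignment was with STAR 2.5.2b and the authors' comparisons with DESeq2, per the submitters' processing notes; the read counter, genome build and strandedness are not given in the sources used here. The authors' comparison tables list the log2 fold change of DOXO over PBS with raw and adjusted p-values as deposited, and a signal per library that equals the authors' count divided by 1 size factor per library. Symbols for 15432 identifiers came from these tables. Total RNA was extracted from frozen samples, per the labels' protocols.

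The 92 spike-in rows were left out and the donor row was kept. These counts were analysed in R 4.3.3 by edgeR 4.0.16 (filterByExpr, TMM, quasi-likelihood F-test, Benjamini-Hochberg adjustment over all genes tested, threshold 0.05). Each SE was derived from the fit as |log2 change| over the root of its F statistic. DOXO effects and their sex differences used the 16 libraries of a region and genotype, genotype terms the 32 libraries of a region, and region terms the 32 libraries of a genotype, with sex as covariate. CPM values are scaled by TMM over all 64 libraries, and log2 CPM carries a prior count of 1. Alternatives were DESeq2 1.42.0, no filter, no TMM, the rat as a block, and leaving out libraries. The fits were tested on simulated data. Correlations used 100000 permutations. No pair of libraries was identical.

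The 9 members, the gene lists and the tests were chosen with earlier results of these data known. All members are named in each comparison by range or value, other lists by the 3 genes of smallest p, and like genes by the 8 highest correlations; 1 gene met by these rules is not reported here. Same-numbered hippocampal and cortical libraries come from the same rat, which pairs them: over 15331 genes the correlation of their deviations from the group means had a median of 0.19, from -0.03 to 0.31, and exceeded 0.1 in 26 of 32 rats.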

Additional observations from a re-analysis of the deposited data

Results flagged for a closer look

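In hippocampus of DOXO-treated ApoE3 rats, Mobp reached 860 CPM in rat 47, apart from the next library at 669 CPM. The gap was 0.552 of the group's whole range, above Dixon's 95% critical value for 8 samples. Of 72 combinations of gene and group examined this was the only one to stand apart, while chance marks about 1 in 20. Rat 47 was also the highest DOXO library for the other 8 genes in that group.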

How the results depend on the processing

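The median change of the 9 genes after DOXO kept its sign in ApoE3 hippocampus and in both cortical comparisons when any 1 rat was left out, with ranges of 0.17 to 0.27, -0.13 to -0.08 (ApoE3 cortex) and -0.11 to -0.04 (ApoE4 cortex). In ApoE4 hippocampus it ran from -0.02 to 0.06. Members called in the 4 DOXO comparisons stayed at 0 in each of these fits. DESeq2 called 1 member in ApoE3 hippocampus, against 0 by edgeR. Without TMM 1 member was called for genotype in hippocampus, against 3. For the sex difference in ApoE3 cortex DESeq2 called 1 and edgeR with no filter 3, against 0. For the ApoE3 region by treatment term DESeq2 called 2, no filter 1 and the replicate block by rat 3, against 0. Fits that left out 1 rat, added after seeing the data for genotype and region, called 0 to 4 members for genotype in hippocampus, 0 to 2 in cortex and 0 to 4 for the region term with the block. Over all genes those fits called 441 to 563 for genotype in hippocampus, 2318 to 2843 in cortex and 0 to 63 for the region term. For the difference between regions in PBS rats, the block also called Mobp in ApoE4 rats and changed no other member's call in that comparison. Signs turned only in values near 0. In ApoE4 hippocampus Fa2h was 0.031 without rats 10 and 31 together and, leaving out 1 rat, Mbp ran from -0.025 to 0.061, Mog from -0.034 to 0.048, Ermn from -0.045 to 0.0575 and Fa2h from -0.083 to 0.015. In cortex Mobp in ApoE4 rats ran from -0.077 to 0.0040, Fa2h for genotype from -0.013 to 0.080, and Mog for the genotype difference of the DOXO effect was 0.0069 with no filter. The cause of these shifts was not tested. With 8 rats per group, the SEs of the 9 genes in the DOXO comparisons were 0.05 to 0.11 on the log2 scale, and differences several SEs wide, such as that of Opalin in ApoE3 hippocampus, were not called after adjustment over all genes.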

Other observations

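Among the further oligodendrocyte genes, Tppp, which binds tubulin and shapes the microtubules of myelinating processes, had positive fitted log2 changes after DOXO in all 4 region and genotype pairs, while the 9 myelin genes were negative in cortex. The values were 0.21 in ApoE3 hippocampus, 0.16 in ApoE4 hippocampus, 0.12 in ApoE3 cortex and 0.14 in ApoE4 cortex. None passed, with 0% of all genes called in each. Tnr, a matrix glycoprotein that precursors and oligodendrocytes secrete, was likewise positive in both cortical comparisons, 0.16 in ApoE3 rats (adjusted p = 0.172 by edgeR) and 0.15 in ApoE4 rats. Klk6, a secreted protease of mature oligodendrocytes, was -0.25 in ApoE3 cortex and did not pass. These 3 genes were singled out after their values were seen.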
